A study of Sus scrofa with 16 samples.

Results

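ENTPD1 (transcript ENSSSCT00000036684) was described in the ovaries of 16 sows, as 1 of the 27370 transcripts of the deposited table. It was chosen because earlier results of these data had shown high levels in one group of sows, so its own levels and differences are given as a description, without a test. The sows were Canadian Large White pigs, unrelated by the study's records, and each gave 1 library of total ovarian RNA from which ribosomal RNA had been removed. The group LH held 4 sows of high fecundity and the group LL 4 sows of low fecundity, both taken in the luteal phase, on day 14 of the cycle counted from the first day of estrus. The group FH held 4 sows of high fecundity and the group FL 4 sows of low fecundity, both taken in the follicular phase, on day 20. Fecundity was graded by the total number of piglets born, the replicate number only names a sow, and no sow was sampled in both phases. The study describes its sows as chosen to limit the effect of parity, while its records list more parities on average for the high-fecundity sows, and parity entered no fit here.

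ENTPD1, also called CD39, is an enzyme of the cell surface that removes phosphates from extracellular ATP and ADP and leaves AMP, which the ectonucleotidase NT5E turns into adenosine. Released nucleotides are sensed by P2X and P2Y receptors and adenosine by ADORA receptors, so the ectonucleotidases set which of these signals a tissue receives. ENTPD1 is known for its presence on vascular endothelium, where it limits platelet activation by ADP, and on several kinds of immune cell. The corpus luteum, which forms from the ovulated follicle, is among the most densely vascularised tissues of the body.

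The 16 libraries rested on 166000 to 305000 fragments each, as estimated from the steps between the lowest FPKM values, and 91.8% to 94.0% of the low values fell within 0.05 of a whole fragment. These totals are far below the number of reads that the study describes, and the reason was not tested. Every fragment count and counting interval given here takes 1 step of the FPKM values as 1 fragment, and would change if a step stood for another number of reads. FPKM divides the fragments of a transcript by its length and by the total of the library. The LL libraries held 189000 to 205000 fragments, within the range of the other groups. Of the 27370 transcripts, 3847 could be given a gene symbol, and the other transcripts are counted but not named. No sequence of ENTPD1 was used here. The transcript is 4944 nt long, longer than 93.8% of those in the table. In the assembly Sscrofa11.1, which is not the assembly behind the table, ENTPD1 lies between TCTN3 and CC2D2B and overlaps the pseudogene LOC100153551. Whether any reads counted for ENTPD1 came from this pseudogene was not tested.

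ENTPD1 was highest in the luteal ovaries of the low-fecundity sows. In the LL libraries it stood at 475.01, 1482.64, 664.06 and 1327.86 FPKM (LL1 to LL4). In the LH libraries it stood at 462.87, 46.39, 100.94 and 38.86 FPKM (LH1 to LH4). All 4 LL libraries lay above all 4 LH libraries, but the gap between LL1 and LH1 was 12.14 FPKM. This gap was smaller than the counting error of either library, since the 95% counting intervals (exact Poisson) ran from 432 to 521 FPKM in LL1 and from 418 to 512 FPKM in LH1. In the FH libraries ENTPD1 stood at 241.54, 42.39, 138.25 and 46.3 FPKM (FH1 to FH4). In the FL libraries it stood at 50.67, 31.23, 62.56 and 19.59 FPKM (FL1 to FL4). The follicular groups overlapped each other, and no follicular library reached the lowest LL library. The LH libraries spanned the range of FH and overlapped that of FL, where FL2 and FL4 lay below every LH library.

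**Figure D1:**
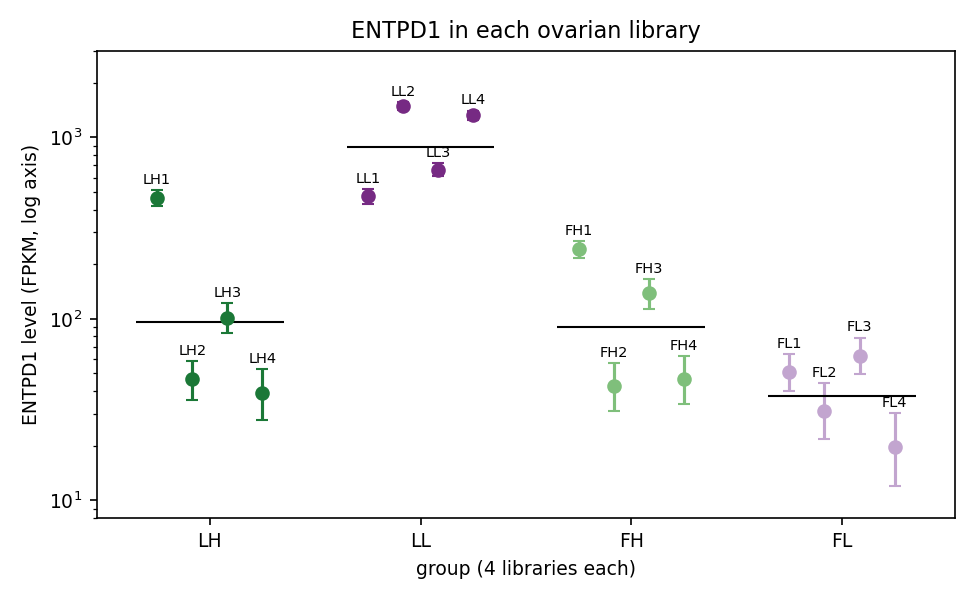
ENTPD1 level in FPKM (log axis) in each of the 16 libraries by group, with bars for the 95% counting interval and a horizontal line at the geometric level of each group. The 4 LL libraries sit between 475.01 and 1482.64 FPKM, LH1 lies just under the lowest of them, and the other libraries lie between 19.59 and 241.54 FPKM.

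The mean of LL was 987 ± 493 FPKM (SD, n = 4), that of LH 162 ± 202, that of FH 117 ± 94.0 and that of FL 41.0 ± 19.3. As geometric levels, which weigh a single high library less, these were 888 FPKM for LL, 96.2 for LH, 90.2 for FH and 37.4 for FL. Neighbours in this order were separated by their libraries only between LL and LH. LH and FH could not be ordered, since the LH library was the higher in 8 of the 16 possible pairs. FH lay above FL in 12 of 16 pairs and LH above FL in 12 of 16. The spread within a group was large, with a highest library 11.9 times the lowest in LH, 5.70 times in FH, 3.19 times in FL and 3.12 times in LL. Over all 16 libraries the range was 75.7-fold.

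Counting error left the LL libraries and LH1 apart from the rest, while the order among the libraries under about 70 FPKM was mostly within their counting intervals, as was that of LH3 and FH3. ENTPD1 took 3634 fragments from the LL libraries, 603 from LH, 525 from FH and 200 from FL, which is 4962 together. The lowest library, FL4, held 20 fragments, with a counting interval of 11.9 to 30.2 FPKM. The highest, LL2, held 1421, with an interval of 1406 to 1562 FPKM. The intervals hold counting error alone, as PCR copies of a molecule are not independent. The share of ENTPD1 among all fragments ran from 0.00923% in FL4 to 0.694% in LL2.

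Within a library, ENTPD1 was among the most abundant transcripts in the LL libraries and in LH1. Among the 27370 transcripts it took rank 43 in LL2, 50 in LL4, 82 in LL3 and 114 in LL1. LH1 followed at rank 125, while LH3 stood at 440, LH2 at 843 and LH4 at 1019. In the follicular phase the ranks ran from 208 across FH1 to 1123 in FH2 and from 756 in FL3 to 2024 in FL4. By its mean over the 16 libraries ENTPD1 was transcript 164 of 27370. The LL libraries and LH1, the 5 highest in ENTPD1, also had the fewest transcripts detected at 0.5 FPKM or more, with 4440 to 6081 in LL and 4622 in LH1 against 6226 to 9660 in the other libraries. The part of this in the level of ENTPD1 was not tested, and FPKM is a share of a library, so a scaling that sets the libraries to a common median ratio is given beside each difference.

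In the luteal phase, where the fecundity groups were compared as the study compared them, the geometric level of ENTPD1 was 9.23 times higher in LL than in LH. The difference of LH from LL on the log2(FPKM + 1) scale was -3.19 (SE 0.68), and -3.36 after median-ratio scaling. The median transcript differed by 0.26 in the other direction, so that ENTPD1 stood at -3.45 relative to it. This was the 21st most negative difference of the 5015 transcripts tested, and rank 11 by size among the 1286 that had a mean of at least 10 fragments per library. Groups that did not overlap, with LH the lower, were found for 1.4% of the transcripts tested. LH1 decided much of the spread, and without it the difference was -3.94. In bulk tissue, fewer cells that carry a transcript and less of it per cell cannot be told apart.

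In the follicular phase the direction was the other way, with much smaller levels and overlapping groups. The geometric level was 2.41 times higher in FH than in FL, a log2 difference of 1.25 (SE 0.59), or 1.30 after median-ratio scaling. FH1 and FH3 lay above all FL libraries, while FH2 and FH4 lay within their range. This difference took place 1421 by size among 8296 transcripts tested and place 80 among the 1294 with a mean of at least 10 fragments. Leaving out 1 library at a time moved it between 0.78 and 1.61.

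Between the phases, the difference of ENTPD1 was large in the low-fecundity sows and near 0, within its SE, in the high-fecundity sows. Its geometric level was 23.7 times higher in LL than in FL, with a gap of 412 FPKM between the groups. The log2 difference of FL from LL was -4.53 (SE 0.69), -5.02 after median-ratio scaling, and -5.29 relative to the median transcript, which was 0.76 higher in FL. It was the 17th most negative of 11027 transcripts tested, and FL lay below LL without overlap for 1.69% of these transcripts. In the high-fecundity sows the log2 difference of FH from LH was -0.09 (SE 0.69), or -0.36 (SE 0.73) after median-ratio scaling, with place 10063 by size among the same 11027 transcripts. Its direction depended on single libraries, as it was 0.66 without LH1, 0.27 without FH2 and 0.22 without FH4.

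The difference between high and low fecundity was thus more positive on day 20 than on day 14, by 4.44 on the log2 scale (SE 0.97), and by 4.66 after median-ratio scaling. This interaction took place 109 by size among 11027 transcripts and place 14 among the 1301 with a mean of at least 10 fragments. The LL libraries entered the luteal comparison, the comparison of FL with LL and the interaction, so these values are not independent of each other. Seen over phase alone, the 8 luteal libraries had a median of 469 FPKM (38.86 to 1482.64) and the 8 follicular libraries one of 48.5 (19.59 to 241.54). Over fecundity alone, the 8 low-fecundity libraries had a median of 269 FPKM and the 8 high-fecundity libraries one of 73.7, and the low-fecundity libraries held both the lowest and the highest value.

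**Figure D2:**
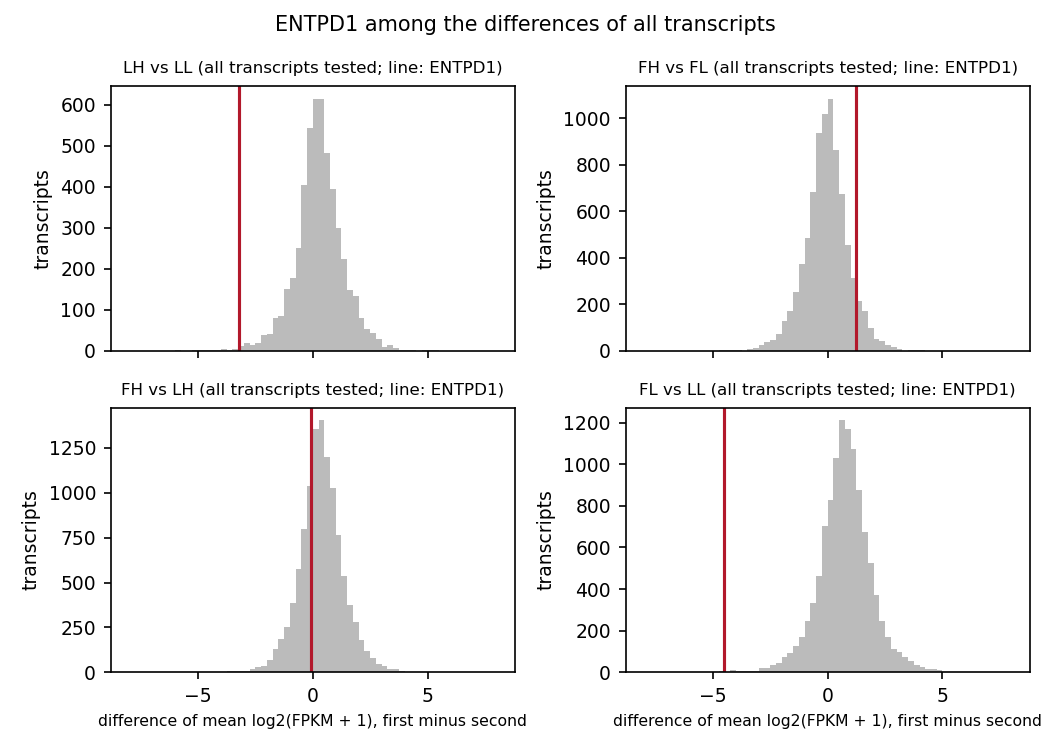
Histograms of the difference of group means of log2(FPKM + 1), first group minus second, over all transcripts tested in 4 comparisons, with a red line at ENTPD1. The line lies far to the left for LH vs LL (-3.19) and FL vs LL (-4.53), to the right of the centre for FH vs FL (1.25) and near the centre for FH vs LH (-0.09).

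As a pattern, a level in which all 4 LL libraries lie above the other 12 was uncommon. It was found for 15 of the 11027 transcripts tested (0.136%), and for 9 of the 1301 with a mean of at least 10 fragments (0.692%), ENTPD1 among them. The reverse pattern, all LL libraries below the other 12, was found for 48 (0.435%), and for 27 of the 1301 (2.08%). Group membership accounted for 74.1% of the variance of ENTPD1 on the log2 scale, place 16 among the 1301 transcripts, for which the median was 34.3%. The SD of ENTPD1 over all libraries was 2.01 on the log2 scale, place 77 of 1301.

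The transcripts that followed ENTPD1 most closely were sought among the other 1300 with a mean of at least 10 fragments per library, by Pearson's r of log2(FPKM + 1) over the 16 libraries. The points share the FPKM scaling of each library and fall into groups, so r is a description and was also computed on the deviations from the group means. Most transcripts ran against ENTPD1, with a median r of -0.35 and 71.2% of the values below 0. After median-ratio scaling the median was -0.11 and 55.1% lay below 0. An r above 0.8 was found for 23 transcripts and one below -0.8 for 61.

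**Figure D3:**
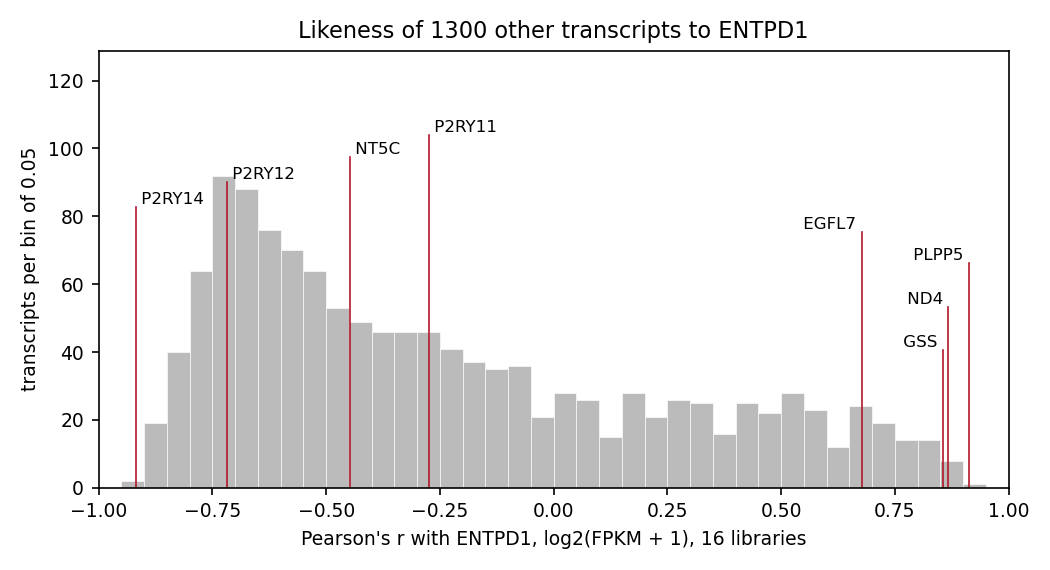
Number of transcripts per bin of 0.05 in Pearson's r with ENTPD1 over 16 libraries, for the 1300 other transcripts with a mean of at least 10 fragments. Red lines mark named transcripts, with PLPP5 at 0.91, ND4 at 0.87, GSS at 0.85 and EGFL7 at 0.68 on the right and P2RY14 at -0.92 on the far left, where the line heights carry no value.

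PLPP5, a phospholipid phosphatase of membranes, had the highest r over the 16 libraries (r = 0.91, Spearman's rho = 0.86). It stood at 2119.65, 697.37, 1395.8 and 844.46 FPKM across LH1 to LH4, and at 3029.58, 3532.81, 2763.66 and 1758.06 across LL1 to LL4. In the follicular phase it stood at 1361.07, 758.01, 1284.42 and 1014.42 FPKM across FH1 to FH4, and at 925.82, 729.56, 785.2 and 834.95 across FL1 to FL4. As with ENTPD1, LH1 was the highest LH library and FH1 and FH3 the highest FH libraries, although LL4 lay below LH1 for PLPP5. The r was 0.68 on the deviations from the group means, where ND4 and 5 transcripts without a symbol among the 10 closest lay nearer to ENTPD1 with up to 0.81. It was 0.89 without the LL libraries, and 0.94 without LL2 and LL4, the libraries farthest from the median of ENTPD1.

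Of the 10 closest transcripts 3 have a symbol, PLPP5, ND4 and GSS. ND4, a subunit of respiratory complex I that is encoded in the mitochondrial genome, had an r of 0.87, and 0.72 on the deviations from the group means. ND4 stood at 7786.09, 893.06, 4114.85 and 2846.83 FPKM across LH1 to LH4, so that LH1 was again the highest LH library. The mean of the LL libraries was 7449 ± 2398 FPKM (SD, n = 4), that of LH 3910 ± 2904, that of FH 2348 ± 1080 and that of FL 1948 ± 365. GSS, the enzyme of the last step of glutathione synthesis, had an r of 0.85, which fell to 0.56 on the deviations and to 0.60 without the LL libraries. GSS stood at 1224.07, 1620.69, 1181.08 and 1118.26 FPKM across LL1 to LL4, above the other 12 libraries, at 90.88 to 746 in LH, and at 81.43 to 145.19 in the follicular libraries. Next to PLPP5 in this order stood ENSSSCT00000019677 (r = 0.89) and ENSSSCT00000019676 (r = 0.87), for which no symbol was found.

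The next transcripts with a symbol had an r between 0.78 and 0.84. They were TCTN1, a protein of the ciliary transition zone, LSM1, a subunit of the complex that starts mRNA decapping, PIK3IP1, an inhibitor of phosphoinositide 3-kinase, GYS1, the glycogen synthase of muscle and other tissues, TMEM63A, an ion channel opened by membrane tension, EML5, a microtubule-associated protein, and TACC3, a protein of the mitotic spindle. TCTN1 was higher in each LL library (148.24 to 210.99 FPKM) than in any other library, where it was 117.27 or less. GYS1 was the most abundant of them, with a mean of 11871 ± 1684 FPKM (SD, n = 4) for LL, 7553 ± 3043 for LH, 7360 ± 1262 for FH and 3946 ± 2032 for FL. On the deviations from the group means these 7 transcripts reached an r of 0.31 (PIK3IP1) to 0.57 (GYS1), less than PLPP5 or ND4. In Sscrofa11.1 LSM1 is among the protein-coding neighbours of PLPP5.

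**Figure D4:**
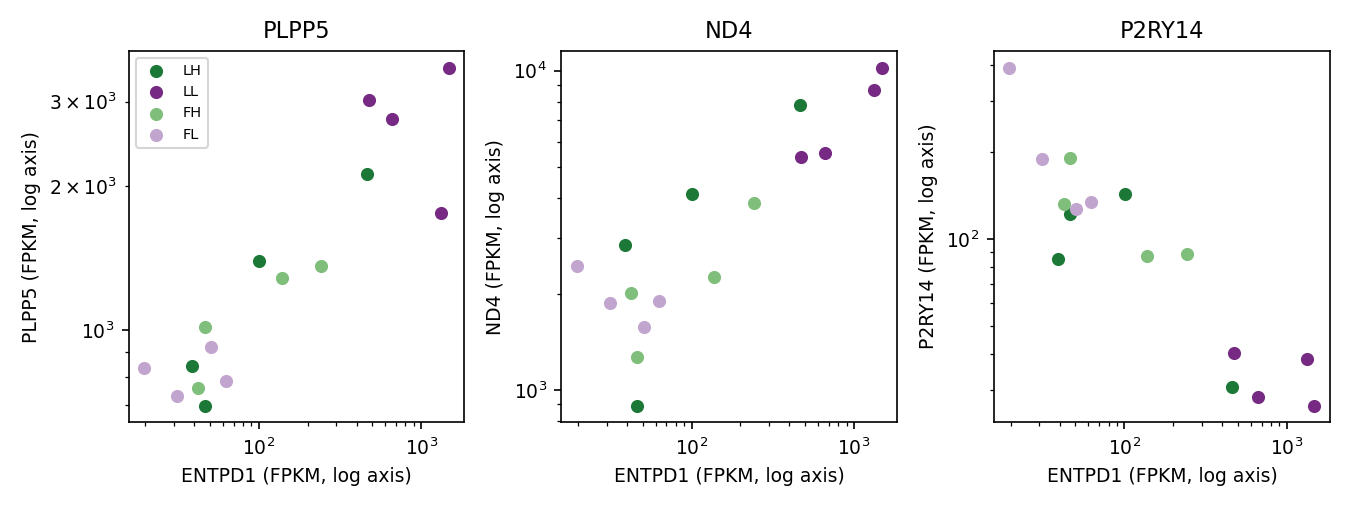
ENTPD1 (FPKM, log axis) against PLPP5, ND4 and P2RY14 (FPKM, log axes) in the 16 libraries, coloured by group. PLPP5 and ND4 rise with ENTPD1 (r = 0.91 and 0.87), while P2RY14 falls (r = -0.92), and LH1 lies beside the LL libraries in all 3 panels.

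At the other end stood P2RY14, a P2Y receptor for UDP-glucose and related nucleotide sugars, with the lowest r of all 1300 transcripts (r = -0.92, rho = -0.81). It belongs to the receptors of extracellular nucleotides, and its values are given with that list. The next lowest with a symbol were USP1, a deubiquitinase of the DNA damage response (r = -0.89), DSTYK, a protein kinase (r = -0.89), SIAH2, a ubiquitin ligase of the response to low oxygen (r = -0.89), and ADAMTS2, a procollagen-processing protease (r = -0.88). USP1 stood at 46.02, 49.2, 54.33 and 62.84 FPKM across LL1 to LL4, below the other 12 libraries, which lay between 101.55 and 185.21 FPKM.

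The other genes of extracellular nucleotide and adenosine signalling were taken from a list of 58 genes, of which 14 could be linked to a transcript, ENTPD1 included. Linked were 3 of 14 ectonucleotidases and related enzymes, 1 of 12 genes of adenosine handling, 3 of 11 of nucleotide and nucleoside passage, 5 of 10 P2Y receptors, 1 of 7 P2X receptors and 1 of 4 adenosine receptors. A symbol could be linked only through the study's own tables, and PANX1, P2RY1, P2RY12 and P2RY14 are named on its list of differential transcripts, chosen on these libraries, so their fecundity differences are not independent evidence. The same libraries enter the phase comparisons and the interaction, so those differences of these transcripts are not independent of that choice either. NT5E, which acts on the product of ENTPD1, was not among those linked.

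Among the 13 genes beside ENTPD1, tested with limma on log2(FPKM + 1), 6 passed the filter on low values in LH vs LL and 3 passed the study's threshold (unadjusted p under 0.05 with a log2 difference of 1 or more), all higher in LH. Of all 5015 transcripts 7.72% passed, 5.4% as higher in LH. The 3 were P2RY1, P2RY12 and P2RY14, all named on the study's differential list. P2RY1 and P2RY12 met the filter only with the LH libraries, where they are high, so that this count says nothing of the list. In FH vs FL 1 of 8 passed, higher in FH, where 4.41% of all transcripts passed and 1.94% as higher. In FH vs LH 1 of 9 passed, also higher in FH, where 7.08% passed and 5.99% as higher. In both it was PANX1, which met the filter through the FH libraries where it is high, so that these counts say nothing of the list, and none of its other members passed. In FL vs LL 2 of 9 passed, both higher in FL, where 17.8% passed and 15.8% as higher, so that this count lay near the background. In the interaction 3 of 9 passed, 1 positive (PANX1 again) and 2 negative, where 7.06% passed, 1.88% as positive and 5.18% as negative. With adjustment over all transcripts tested, an adjusted p under 0.05 was reached by 2 of the 9 in FL vs LL, where 1.41% of all transcripts reached it, and by none in the other comparisons, where the share was 0.0199% in LH vs LL, 0% in FH vs FL, 0.0181% in FH vs LH and 0.00907% in the interaction. By limma voom on recovered fragments 1 reached it in LH vs LL, where 27 of all 5015 transcripts did. It was P2RY1, which held 2 fragments in LL. Unadjusted p-values under 0.05 numbered 3, 1, 1, 2 and 3 in the 5 comparisons in this order, the same genes that passed the study's threshold.

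Of the other ectonucleotidases and related enzymes 2 were linked, both with too few fragments to be followed, and the others were not analysed here. ENTPD6, an intracellular and secreted relative of ENTPD1, held 2 fragments over all 16 libraries and CANT1, a calcium-activated nucleotidase, held 1. NT5C, a cytosolic 5'-nucleotidase, stood at 83.22, 67.58, 111.22 and 100.49 FPKM across LH1 to LH4, at 102.92, 104.97, 104.33 and 76.03 across LL1 to LL4, at 100.8, 133.75, 123.52 and 106.58 across FH1 to FH4, and at 137.37, 185.17, 188.78 and 117.8 across FL1 to FL4. Every FL library lay above every LL library, which was found in this direction for 7.95% of the transcripts. The log2 difference of 0.68 (SE 0.34) had an adjusted p of 0.288 in limma, and was -0.09 relative to the median transcript.

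Among the transcripts of passage, PANX1, a channel through which ATP leaves cells, read 3.9, 5.16, 6.93 and 2.84 FPKM across FH1 to FH4, at 3.02 in LL3 and at 0 elsewhere. The values rested on 8 fragments in all, 7 of them in FH. Against the floor of 3 fragments over a group that a count of 0 allows, its share in FH was 2.65 times that of FL and 2.48 times that of LH. These ratios take the 7 fragments of FH as exact, so they are not lower limits. Without any one FH library it had too few values to be tested in FH vs FL. PANX2, of the same family, held 15 fragments, and SLC29A1, a nucleoside transporter of the cell membrane, held 51 and was listed at 0 to 8.66 FPKM with no call in any comparison.

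Among the linked genes beside ENTPD1, only the P2Y receptors P2RY14 and P2RY12 reached an adjusted p under 0.05 with limma on log2(FPKM + 1), in FL vs LL. Both are named on the study's differential list, so these p-values are not independent of that choice. P2RY14 stood at 30.63, 121.86, 142.89 and 85.1 FPKM across LH1 to LH4, and at 40.32, 26.49, 28.38 and 38.29 across LL1 to LL4. It stood at 88.45, 132.6, 87.23 and 190.63 FPKM across FH1 to FH4, and at 127.01, 189.36, 134.45 and 392.52 across FL1 to FL4. All 4 LL libraries and LH1, the 5 libraries with the most ENTPD1, were the 5 lowest in P2RY14. P2RY14 was higher in FL than in LL by 2.49 on the log2 scale (SE 0.49, adjusted p = 0.0161 in limma), or by 1.73 relative to the median transcript, and without LL2 the adjusted p was 0.0571. In LH vs LL the log2 difference was 1.30 (SE 0.50, adjusted p = 0.491 in limma), and in the interaction -1.97 (SE 0.69, adjusted p = 0.536). These values rested on 485 fragments, and the likeness to ENTPD1 was -0.77 on the deviations from the group means, -0.83 without the LL libraries and -0.88 after median-ratio scaling.

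P2RY12, the ADP receptor of platelets and microglia, stood at 14.94, 128.8, 43.68 and 41.09 FPKM across LH1 to LH4, and at 0, 12.89, 0 and 21.06 across LL1 to LL4. It stood at 39.77, 69.5, 55.74 and 51.38 FPKM across FH1 to FH4, and at 24.99, 130.73, 89.12 and 268.42 across FL1 to FL4. All FL libraries and 3 of the 4 LH libraries lay above all LL libraries. For FL this was found in the same direction for 7.95% of the transcripts. P2RY12 was higher in FL than in LL by 4.51 on the log2 scale (SE 0.92, adjusted p = 0.0192 in limma), or by 3.75 relative to the median transcript. Without LL1, LL3, FL2 or FL4 the adjusted p lay between 0.0514 and 0.0549, and the LL libraries held only 5 of its 182 fragments. As a ratio of fragment shares FL held 14.6 times the level of LL, with a 95% counting interval of 6.03 to 46.0. The fragments of a group were pooled for this ratio, so the interval holds counting error alone and leaves out the spread between sows. In LH vs LL the log2 difference was 3.41 (SE 1.07, adjusted p = 0.328), in the interaction it was -4.23 (SE 1.31, adjusted p = 0.480), and r with ENTPD1 was -0.72 but -0.13 on the deviations from the group means.

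P2RY1, another receptor of ADP, stood at 28.3, 85.56, 11.66 and 25.18 FPKM across LH1 to LH4, and at 0, 0, 2.93 and 2.94 across LL1 to LL4. It stood at 22.74, 15.04, 10.09 and 27.54 FPKM across FH1 to FH4, and at 12.59, 12.31, 6.47 and 0 across FL1 to FL4. The LH and LL libraries did not overlap, which was found with LH the higher for 3.83% of the transcripts. The log2 difference of 3.93 (SE 0.87) had an adjusted p of 0.192 in limma, and the LL libraries held 2 fragments against 71 in LH, a ratio of shares of 29.8 with a counting interval of 7.95 to 251. This interval too pools the sows of a group and leaves out the spread between them. In FL vs LL the log2 difference was 1.61 (SE 0.85, adjusted p = 0.314).

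P2RY11, a receptor of ATP, showed no such pattern. It stood between 39.29 and 98.66 FPKM in all libraries, with means of 64.3 ± 18.5 for LH, 61.3 ± 18.4 for LL, 67.4 ± 26.2 for FH and 70.7 ± 19.4 for FL (SD, n = 4), on 1122 fragments. No comparison passed the threshold, and in FL vs LL the log2 difference was 0.21 (SE 0.42), or -0.55 relative to the median transcript. Its r with ENTPD1 was -0.27, and 0.21 after median-ratio scaling. P2RY6, a receptor of UDP, held 2 fragments, P2RX2, an ATP-gated channel, was listed at 0 in every library, and ADORA3, an adenosine receptor, held 25 fragments over 6 libraries with no call.

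**Figure D5:**
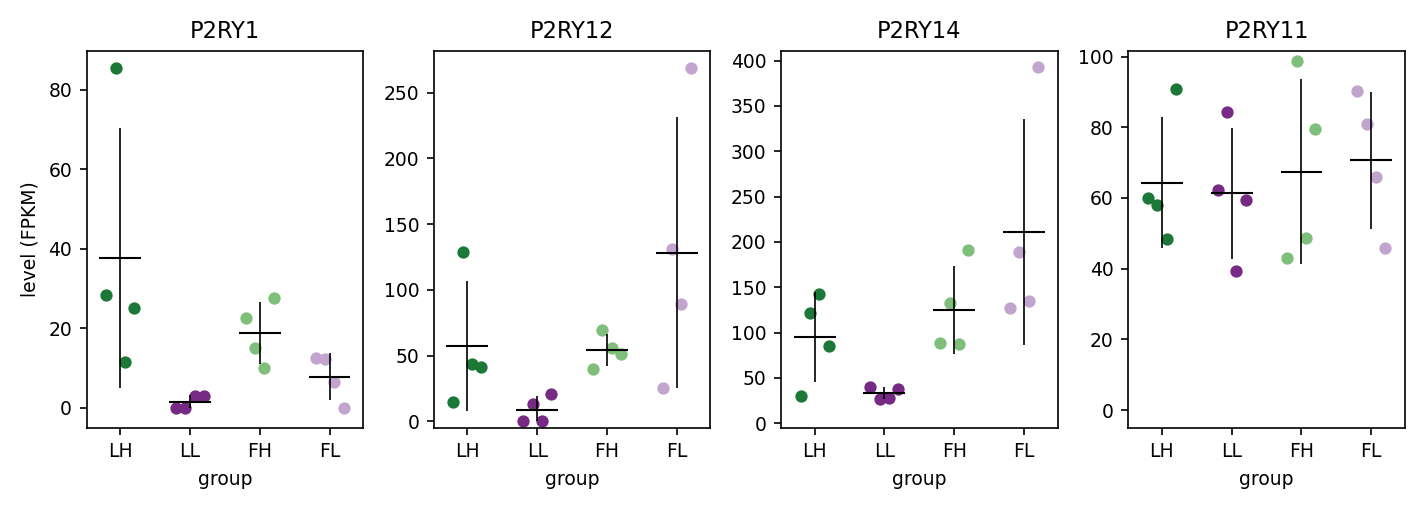
FPKM of P2RY1, P2RY12, P2RY14 and P2RY11 in each library by group (linear axes), with the mean as a horizontal line and the SD as a vertical line (n = 4). The LL libraries are the lowest group for P2RY1, P2RY12 and P2RY14, at no more than 2.94, 21.06 and 40.32 FPKM, and lie among the others for P2RY11.

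Markers of the cell types an ovary can hold were read beside these values, from a list of 59 genes of which 12 could be linked. EGFL7, SCARB1, PTGFR and GDF9 are named on the study's differential list, chosen on these libraries. Of the 17 endothelial markers 6 were linked, and EGFL7, a secreted protein of endothelium, made up nearly all of their sum. EGFL7 stood at 891.95, 47.62, 625.84 and 403.83 FPKM across LH1 to LH4, at 945.31, 1213.28, 647.53 and 428.72 across LL1 to LL4, at 203.56, 103.14, 933.26 and 396.03 across FH1 to FH4, and at 167.93, 241.6, 47.85 and 57.9 across FL1 to FL4. Every LL library lay above every FL library, which was found in this direction for 1.69% of the transcripts. The log2 difference of EGFL7 in FL from LL was -2.85 (SE 0.77). It passed the study's threshold but not the adjustment (adjusted p = 0.0664 in limma). The r of EGFL7 with ENTPD1 was 0.68. In FH vs FL its log2 difference was 1.52 (SE 0.65, adjusted p = 0.914), also past the study's threshold. The summed level of the 6 markers was 436 to 1213 FPKM in LL, 53.3 to 892 in LH, 106 to 943 in FH and 47.9 to 243 in FL. Without EGFL7 the sum was at most 11.3 FPKM in any library, PECAM1, an adhesion protein of endothelium, held 3 fragments, TIE1 held 2 and CLDN5 was listed at 0 throughout. ROBO4 and SOX17 held 13 fragments each. ROBO4 was highest in LL4 (5.66 FPKM), while SOX17 was listed at 0 in all LL libraries and at up to 9.8 FPKM in LH and 9.81 in FH. The part of endothelium in the level of ENTPD1 was not tested.

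Of the 15 immune markers 2 were linked, and their sum did not separate LL from the other groups. CD68, a macrophage protein, and FOXP3, the factor of regulatory T cells, summed to 4.94 to 45.0 FPKM in LL, 16.9 to 48.4 in LH, 27.5 to 73.3 in FH and 32.2 to 65.5 in FL. The more abundant CD68 transcript was higher in FL than in LL by 1.81 on the log2 scale (SE 0.85). This passed the study's threshold, as 15.8% of all transcripts did in this direction, but not the adjustment (adjusted p = 0.257 in limma). DES, the only smooth muscle marker linked, held 18 fragments. It was listed at up to 2.58 FPKM in LL, 11.11 in LH, 14.82 in FH and 1.91 in FL. Of the 6 luteal markers SCARB1, the receptor that takes up lipoprotein cholesterol, and PTGFR, the receptor for prostaglandin F2 alpha, were linked. PTGFR stood at 14.6, 23.08, 5.74 and 13.4 FPKM across LL1 to LL4, at 1.2 to 3.29 in LH, at 0 to 8.22 in FH, and at 0 in all FL libraries. It was lower in FL than in LL (log2 difference -3.79, SE 0.82, adjusted p = 0.0260 in limma), on 44 fragments in all. Every LH library lay below every LL library for PTGFR too, on 5 fragments in LH and 31 in LL. This was found in the same direction for 1.4% of the transcripts. For PTGFR, LH vs LL passed the study's threshold but not the adjustment (log2 difference -2.24, SE 0.78, adjusted p = 0.425 in limma). The same held for its interaction (3.71, SE 1.16, adjusted p = 0.489 in limma). Both luteal markers together summed to 5.74 to 38.5 FPKM in LL, 1.2 to 7.21 in LH, 0 to 10.18 in FH and 0 to 5.91 in FL. The part of luteal cells in the level of ENTPD1 was not tested. No follicle cell marker was linked, so the labelled follicular phase could not be checked from follicle genes, and GDF9, the only oocyte marker linked, was listed at 0 in all LL libraries and at up to 15.1 FPKM in FH.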

How the data were processed

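Total RNA of ovaries from 16 sows was sequenced as pairs after removal of ribosomal RNA. Per the study's methods, the pig assembly Sscrofa10.2 was the reference and RSEM gave the expression of each transcript, while the submitters' processing notes also name HISAT2 2.0.1 and StringTie 1.0.4. The strand setting is not given in the sources used here. What the authors deposited is FPKM per transcript, to 2 decimals, and the transcript lengths.

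Fragments were recovered from the FPKM steps of transcripts longer than 1500 nt, which was tested on simulated data. Values were put on the log2(FPKM + 1) scale, with a pseudocount of 1, from the deposited FPKM. Transcripts that reached 0.5 FPKM in 4 or more of the libraries fitted were tested with limma 3.58.1 in R 4.3.3 (variances moderated along the mean, two-sided p, Benjamini-Hochberg adjustment over all transcripts tested). The fecundity comparisons were fitted on their own 8 libraries, the phases and the interaction on all 16. The fit was tested on simulated data. The transcripts given a change there held more fragments than P2RY1, P2RY12 or PANX1. The spread added between simulated libraries was smaller than that of ENTPD1 within groups. The simulation therefore does not cover transcripts as sparse or as variable as these. Levels, ranks and likeness used Python 3.11.15, numpy 2.4.6, pandas 2.3.3, scipy 1.17.1 and matplotlib 3.10.9.

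Symbols came from the study's pairing of transcripts with genes in its differential list and its table of predicted targets, of which a part was used, for names only. The text names ENTPD1, the linked genes of nucleotide signalling and of cell type markers, the 10 transcripts most like ENTPD1 (at most 2 without a symbol), the 10 most like it with a symbol and the 5 least like it with a symbol. ENTPD1 and the lists were chosen with earlier results of these data known. Replicates are separate sows, so p-values measure the spread between these sows. The alternatives tried were no filter, a filter of 1 FPKM, a pseudocount of 0.1, median-ratio and quantile scaling, no variance trend, limma voom on the recovered fragments, a replicate block, other libraries in the fit, and leaving out each library in turn.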

Additional observations from a re-analysis of the deposited data

Results flagged for a closer look

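In 46 groups of 4 libraries, from 12 transcripts, the highest or lowest library was set against the others, and a gap above the 95% critical value of Dixon's test, as a share of the range of the group, was looked for. The check was run on FPKM and not on the log2 scale used for the differences, where a high library stands less far apart. For normally distributed values chance alone gives such a gap in about 1 in 20 groups. It was found for ENTPD1 in LH1, at 463 FPKM with 0.854 of the range of the LH libraries between it and the next, for NT5C in LL4, which was the lowest LL library at 76.0 FPKM (0.929 of the range), and for PANX1 in LL3, at 3.02 FPKM where the other LL libraries are listed at 0. A single value above 0 beside zeros always gives such a gap, so the flag of PANX1 carries no information.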

How the results depend on the processing

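The log2 differences of ENTPD1 kept their direction under a pseudocount of 0.1, median-ratio scaling and quantile normalization in all 5 comparisons. Leaving out 1 library at a time gave -3.94 to -2.76 for LH vs LL, 0.78 to 1.61 for FH vs FL, -4.83 to -4.23 for FL vs LL and 3.97 to 5.19 for the interaction. The difference of FH from LH ranged from -0.56 to 0.66 and turned positive without LH1 (0.66), FH2 (0.27) or FH4 (0.22). The count of nucleotide signalling transcripts past the study's threshold in FH vs FL was 0 without any one FH library, where PANX1 had too few values to be tested, and 2 without FL1. It ranged from 2 to 3 in LH vs LL and FL vs LL, was 1 in FH vs LH and 3 to 4 in the interaction. Of the 10 transcripts most like ENTPD1, 5 were still among the 10 on deviations from the group means, 6 without the LL libraries, and 6 (without FL4) to 10 without 1 library. P2RY12 in FL vs LL lost its call with no filter (adjusted p = 0.0542 in limma), while P2RY1 in LH vs LL gained one with limma voom (adjusted p = 0.00891). With limma voom the adjusted calls over all 5015 transcripts in LH vs LL also rose, from 1 to 27. Sows with the same replicate number did not deviate together (median r = -0.01 over 24 pairs, 0.00 over 72 others, and 5 of 16 libraries correlated best with their own number). With the replicate number as a block, ENTPD1 in LH vs LL kept a difference of -3.19 (SE 0.78), and the counts of nucleotide signalling transcripts stayed at 3, 1, 1, 2 and 3. Over all transcripts, the count past the study's threshold went from 387 in LH vs LL and 366 in FH vs FL to 651 in each with all 16 libraries in the fit, and from 781 to 424 in FH vs LH with 2 groups. The filter then took other transcripts too (11027 tested in place of 5015 and 8296, and 7129 in place of 11027), so these counts changed with both choices. Depth limits every transcript under about 10 fragments per library, which holds for P2RY1, PANX1 and most markers.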
